A study of Mus musculus with 8 samples.

Results

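The genes of cell division were examined in the newborn brain after maternal cadmium (Cd) exposure. The members are 42 genes named by symbol as core parts of the cell cycle, of the 49585 genes listed in the table of reads aligned to the C57BL/6J genome. All 42 had an identifier in that table, and 41 passed the filter on low counts and were tested among 23113 genes. They were divided by role into 18 genes of the G1/S transition and S phase and 24 genes of G2 and mitosis. Levels are given as CPM, the counts of a gene scaled to the size of its library, and a difference between doses as a log2 fold change, the 50 ppm brains over the 0 ppm brains, so that negative values are lower in exposed brains.

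The RNA of whole brains was sequenced in female B × C F1 mice, from a C57BL/6J ('B') dam and a CAST/EiJ ('C') sire, taken within 24 h of birth and labelled postnatal day 1. Dams of the F1 50ppm group drank water with 50 ppm CdCl2 for 5 weeks before mating and until birth. Dams of the F1 0ppm group drank water with 0 ppm CdCl2 over the same time. There were 4 brains for each dose, each from a different litter, and the replicate numbers used here only name the brains. The pups themselves received Cd only through the dam, and each library mixed all regions and cell types of a brain.

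A dividing cell commits to division when cyclin D and cyclin E kinases release the E2F transcription factors from the retinoblastoma protein. Replication origins are then licensed by loading the MCM helicase, DNA is copied in S phase, and cyclin B with its kinase drives the cell into mitosis, where the spindle parts the chromosomes until the anaphase-promoting complex destroys cyclin B. In the newborn mouse brain, dividing cells are found in the germinal zones along the ventricles, in the external granule layer of the cerebellum and among glial progenitors, while most neurons have left the cycle. In a homogenized brain, fewer dividing cells and less of these transcripts in each dividing cell cannot be told apart.

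The promoters of members were read from RefSeq windows (GRCm38.p6) that run from 250 bases before to 50 bases after the start of a gene. Windows were found for 32 of the 42 members. Motifs known from cell cycle promoters were searched on both strands. These were the CHR (TTTGAA), an element of genes transcribed in G2 and mitosis, the CCAAT box (CCAAT), bound by NF-Y, and an E2F site (TTTGGCGC or TTTCGCGC), an element of genes transcribed toward S phase. Matches of the E2F forms can overlap each other where the site is read on both strands. The 2 G2 and mitosis members with the smallest p-values in the comparison of doses, Ccnb2 and Cdc20, are printed below. Mcm5 and Mcm6 of the S phase set are printed with them, and only stretches upstream of the start are shown. The stretches end at the last base before the outermost start of the gene in RefSeq or GENCODE. They are written 5′ to 3′ on the strand of the gene and have the matched motifs in capitals.
Ccnb2, GRCm38 chr9:70421555-70421804, minus strand: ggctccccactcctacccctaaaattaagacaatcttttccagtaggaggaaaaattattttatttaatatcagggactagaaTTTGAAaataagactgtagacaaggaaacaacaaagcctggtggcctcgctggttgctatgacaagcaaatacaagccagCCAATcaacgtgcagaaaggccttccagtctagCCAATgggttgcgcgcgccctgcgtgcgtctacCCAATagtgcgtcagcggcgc
Cdc20, GRCm38 chr4:118437353-118437593, minus strand: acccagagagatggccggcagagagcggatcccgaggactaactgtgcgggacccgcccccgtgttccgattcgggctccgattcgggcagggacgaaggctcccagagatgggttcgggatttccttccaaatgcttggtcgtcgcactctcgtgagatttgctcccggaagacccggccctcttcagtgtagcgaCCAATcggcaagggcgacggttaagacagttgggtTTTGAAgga
Mcm5, GRCm38 chr8:75109259-75109508, plus strand: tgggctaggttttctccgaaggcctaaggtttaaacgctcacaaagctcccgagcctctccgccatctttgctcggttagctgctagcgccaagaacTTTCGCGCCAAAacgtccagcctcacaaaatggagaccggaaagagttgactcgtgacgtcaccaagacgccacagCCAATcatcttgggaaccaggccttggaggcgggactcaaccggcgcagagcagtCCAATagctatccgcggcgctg
Mcm6, GRCm38 chr1:128359706-128359955, minus strand: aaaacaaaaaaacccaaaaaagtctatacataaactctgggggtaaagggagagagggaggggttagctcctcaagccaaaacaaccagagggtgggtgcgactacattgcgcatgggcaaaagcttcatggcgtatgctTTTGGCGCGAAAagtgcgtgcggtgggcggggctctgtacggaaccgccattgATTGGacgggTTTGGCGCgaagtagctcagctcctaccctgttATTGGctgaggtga
The upstream stretch of Ccnb2 held 1 CHR and 3 CCAAT boxes, and that of Cdc20 held 1 of each. Mcm5 had 2 overlapping E2F matches and 2 CCAAT boxes there. Mcm6 had 3 E2F matches, a pair of which overlap, and 2 CCAAT boxes. The windows ran past these stretches, and matches there are not printed. By distance from the start of the gene, Ccnb2 had a further CHR at 4. That CHR lies downstream of its CCAAT boxes at -87, -54 and -21, while the printed CHR, at -167, lies upstream of them. Cdc20 had a further CCAAT box at -8, downstream of its CHR at -18. Mcm5 had a further CCAAT box at 6.

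Over the whole windows, 14 of the 19 G2 and mitosis members with a window held a CHR (73.7%), against 1 of 13 G1/S and S phase members (7.69%, Mcm2) and 20.2% of all 27025 genes with a window. An E2F site was found in 5 of the 13 G1/S and S phase members (38.5%), namely Cdt1, Mcm3, Mcm5, Mcm6 and Mcm7. It was found in 1 of 19 G2 and mitosis members (5.26%, Cdk1) and in 0.929% of all genes. CCAAT boxes were present in 17 of 19 (89.5%) and 8 of 13 (61.5%) members, against 41.1% of all genes. Of 43 genes of mitosis that have a window and are not members, 27 had a CHR (62.8%). Of 30 further DNA replication genes with a window, 8 had an E2F site (26.7%). No window was read for Foxm1, Ccnd1, Ccna2, Gmnn, Tpx2, Aurkb, Ccne2, Mcm4, Kif20a and Ccnd2. A match describes the letters of the window and was not tested as a binding site.

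**Figure D1:**
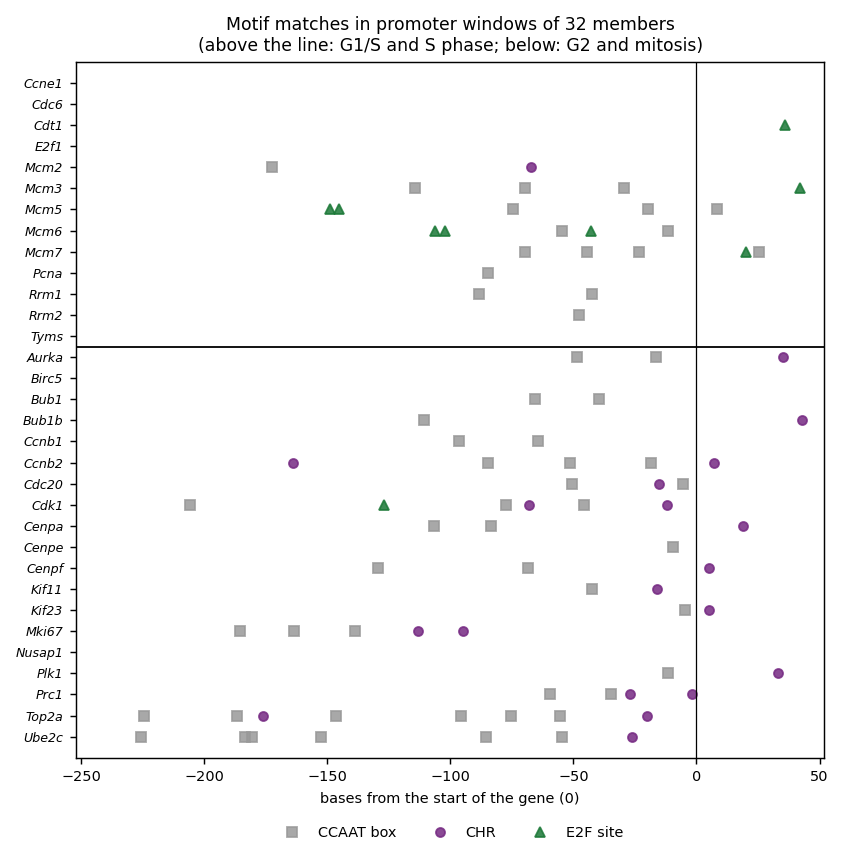
Matches of 3 motifs in the promoter windows of 32 members, by distance in bases from the start of the gene (x axis), with 1 line for each gene (y axis). Purple circles (CHR) lie almost all below the dividing line, in 14 of 19 G2 and mitosis members, and green triangles (E2F site) lie above it except in Cdk1.

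The 8 libraries held 22916434 to 30708087 counts, and a count of 3 was worth 0.098 to 0.132 CPM. Whole brain was checked against neuronal markers, and Dcx, a microtubule protein of young neurons, was at 1740 to 2130 CPM. Tubb3 and Sox2 were listed at 0 in all libraries, as was the member Cdt1, which loads the MCM helicase at origins. Cdt1 lies at chr8:122568015-122573554 on the plus strand, inside the annotated span of a longer transcript, Gm20388, on the same strand. All 36 protein-coding genes on that strand within the span were listed at 0, and 0 of the 35 on the opposite strand were. Tubb3 is among these 36 genes. The 0 of Cdt1 and the 0 of Tubb3 were therefore not used as levels. In the annotation used here, the exons of Cdt1 and Tubb3 overlapped 0% with exons of other genes on the same strand. The cause of these zeros was not tested. The cause of the 0 of Sox2 was not tested, and it was not read as absence.

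None of the 41 tested members differed between the doses at an adjusted p under 0.05 in the quasi-likelihood test of edgeR, adjusted by Benjamini-Hochberg over all genes tested, and the adjusted p was 0.999 for each. Of all genes tested, 4 passed (0.0173%). At an unadjusted p under 0.05, 3 members were lower in the 50 ppm brains (Ccnb2, Cdc20 and Tpx2) and 0 were higher, where 1.44% and 2.31% of all genes were. DESeq2 gave the same 3 members unadjusted and 0 adjusted. In 0 members did all exposed brains lie below or above all control brains, against 0.904% and 1.19% of all genes.

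All 24 G2 and mitosis members had a negative log2 fold change (median -0.20, range -0.44 to -0.06). The 17 tested G1/S and S phase members divided into 8 negative and 9 positive (median 0.01, range -0.21 to 0.09). Of all genes tested, 51% were negative, with a median of -0.003, and of the 12507 genes at or above the level of the lowest member 6878 were negative. Genes of mitosis share their timing and their cells of origin, so the 24 values are not independent of each other. Leaving out 50 ppm replicate 2, 19 of 24 were negative with a median of -0.10, and leaving out 0 ppm replicate 2, 23 of 24 were negative with a median of -0.12. For the S phase side the count rested on 0 ppm replicate 4, without which 15 of 17 were negative with a median of -0.06. No test was made of the difference between the sets.

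**Figure D2:**
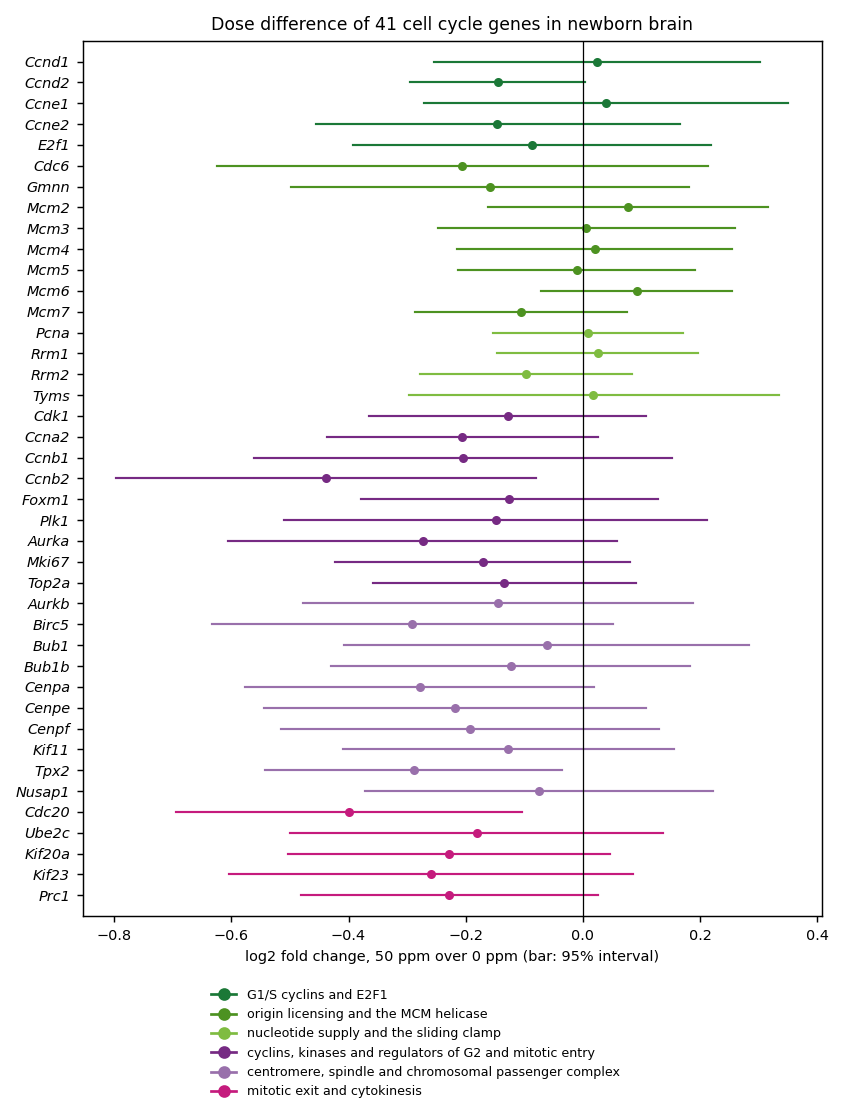
Log2 fold change (x axis, 50 ppm over 0 ppm) of each tested member (y axis) as a point with its 95% interval from the edgeR fit, coloured by role. All 24 points of the G2 and mitosis groups lie left of 0, and the intervals of Ccnb2, Tpx2 and Cdc20 do not reach 0.

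At the G1/S transition, cyclin D2 was the most abundant member for its length, at 23.9 CPM per kb of exon over all brains. Length here is that of all annotated exons of a gene merged together. Ccnd2 stood at 240, 256, 237 and 214 CPM in the 0 ppm brains (replicates 1 to 4) and at 199, 209, 220 and 228 CPM in the 50 ppm brains. The groups overlapped only through 0 ppm replicate 4, below exposed replicates 3 and 4. Its log2 fold change was -0.15 with a standard error (SE) of 0.07. Cyclin D1, which like D2 partners CDK4 and CDK6, had 51.2 ± 13.2 CPM in control brains (SD, n = 4) and 52 ± 6.02 CPM in exposed brains. The control spread of Ccnd1 came from replicate 1 at 69.9 CPM, the other controls being between 41.8 and 50.8.

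Cyclins E1 and E2 activate CDK2 at the start of S phase and were scarcer. Ccne1 averaged 7.30 ± 1.07 CPM in 0 ppm brains and 7.50 ± 1.14 CPM in 50 ppm brains (SD, n = 4). Ccne2 was at 6.38, 8.30, 6.73 and 7.24 CPM in control brains and 8, 5.58, 6.35 and 5.91 CPM in exposed brains. Exposed replicate 1 lay among the highest controls, and the other exposed brains lay below all controls. E2f1, the transcription factor that drives S phase genes, was measured at 13.4, 16.6, 10.6 and 11.0 CPM against 14.0, 12.3, 12.2 and 10 CPM. The log2 fold changes of Ccne2 and E2f1 were -0.15 (SE 0.15) and -0.09 (SE 0.15), within their error.

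For origin licensing, Mcm7 was the most abundant helicase subunit for its length (11.7 CPM per kb), followed by Mcm6 (11.0), Mcm4 (7.68), Mcm5 (7.46), Mcm3 (5.15) and Mcm2 (3.21). The MCM2 to MCM7 proteins act as a ring with 1 copy of each. The order of their transcripts depends on the merged exon length. Mcm2 ranked below Mcm3 with a length of 6.956 kb against 3.752 kb. Its mean CPM was higher, at 21.8 in control and 22.9 in exposed brains against 19.3 and 19.4 for Mcm3. Mcm7 read 49.2, 61.8, 54.3 and 49.1 CPM in control brains and 47.1, 48.6, 54.7 and 48.9 CPM in exposed brains, with a log2 fold change of -0.11 (SE 0.09). Mcm6 gave the highest positive estimate of any member, at 0.09 (SE 0.08). Its CPM was 51.1, 51.2, 51.2 and 46.0 in control brains and 49.8, 52, 59.0 and 52 in exposed brains, and the groups overlapped. Log2 fold changes of the remaining subunits, Mcm2 to Mcm5, lay between -0.01 and 0.08.

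The loaders and brakes of licensing had the lowest counts. Cdc6, which brings the helicase to origins, was the lowest member for its length (0.664 CPM per kb). It was at 4.03, 3.76, 4.25 and 2.87 CPM in control brains and 4, 3.30, 3.5 and 2.07 CPM in exposed brains. Replicate 4 of each dose was the lowest of its group. Its log2 fold change of -0.21 had an SE of 0.20. Geminin, the inhibitor of CDT1, averaged 3.67 ± 0.17 CPM against 3.30 ± 0.44 CPM (Gmnn, SD, n = 4).

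Among genes of nucleotide supply and the replication fork, Pcna, the sliding clamp, was the most abundant for its length (20.3 CPM per kb). Its CPM was 51.4, 51.7, 47.8 and 43.1 in control brains and 47.5, 49.7, 49.2 and 48.7 in exposed brains. The exposed values all lay within the control range. Rrm1 and Rrm2 encode the large and small subunits of ribonucleotide reductase, which makes deoxyribonucleotides. Rrm1 stood at 63.2, 71.8, 69.2 and 61.0 CPM in control brains and 61.0, 63.7, 73.5 and 71.8 CPM in exposed brains, with no separation. Rrm2 was at 42.2, 38.5, 40.8 and 34.3 CPM against 39.2, 35.1, 37.5 and 33.8 CPM, a log2 fold change of -0.10 (SE 0.09). Thymidylate synthase, which makes the thymine nucleotide, had 9.76, 6.06, 8.29 and 7.51 CPM in control brains and 8.74, 7.51, 8.81 and 6.97 CPM in exposed brains (Tyms). The control group held both the highest and the lowest Tyms value.

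In G2 and mitotic entry, the largest estimate was that of cyclin B2, a partner of CDK1 (Ccnb2, chr9:70407692-70421547, minus strand). Its 4 control values were close together, at 7.41, 7.07, 7.64 and 7.40 CPM, and the exposed brains had 4.77, 4.14, 7.74 and 5.12 CPM. Exposed replicate 3 was the highest of all 8 brains, while the other 3 exposed brains lay below every control. The log2 fold change was -0.44 (SE 0.17, 95% interval -0.80 to -0.08), with an unadjusted p of 0.0192 and an adjusted p of 0.999 by edgeR. An exact two-sided permutation test on log2 CPM gave 0.143, where 0.0286 is the smallest p that 4 against 4 brains allow.

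Cyclin A2, which acts in both S phase and G2, had 28.9, 28.8, 26.6 and 22.0 CPM in control brains and 23.7, 19.0, 24.8 and 24.7 CPM in exposed brains (Ccna2). Its groups overlapped through control replicate 4, and the log2 fold change was -0.21 (SE 0.11). Aurora kinase A, a kinase of centrosome maturation, was at 8.06, 6.58, 6.43 and 5.65 CPM in control brains and 5.05, 4.49, 6.28 and 6.35 CPM in exposed brains (Aurka). Its log2 fold change was -0.27 (SE 0.16). Top2a, the topoisomerase that untangles replicated DNA, was the most abundant member of this group for its length (7.60 CPM per kb). Its CPM was 81.3, 78.2, 68.4 and 58.6 in control brains and 64.6, 53.1, 72.7 and 70.9 in exposed brains, so that the highest exposed brain exceeded the lower 2 controls.

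The other 5 members of this group were negative with intervals that included 0. Mki67, the gene of the proliferation marker Ki-67, averaged 58.4 ± 8.66 CPM in control brains and 51.9 ± 9.50 CPM in exposed brains (SD, n = 4). Cdk1, the mitotic kinase itself, averaged 13.4 ± 1.03 and 12.3 ± 1.17 CPM, and its partner cyclin B1 (Ccnb1) averaged 11.4 ± 2.29 and 9.95 ± 2.42 CPM. Foxm1, a transcription factor of G2 genes, averaged 15.3 ± 1.69 and 14.1 ± 1.92 CPM. Plk1, a kinase of mitotic entry and spindle assembly, averaged 7.80 ± 0.86 and 7.04 ± 1.85 CPM. Their log2 fold changes ranged from -0.20 for Ccnb1 to -0.13 for Foxm1.

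**Figure D3:**
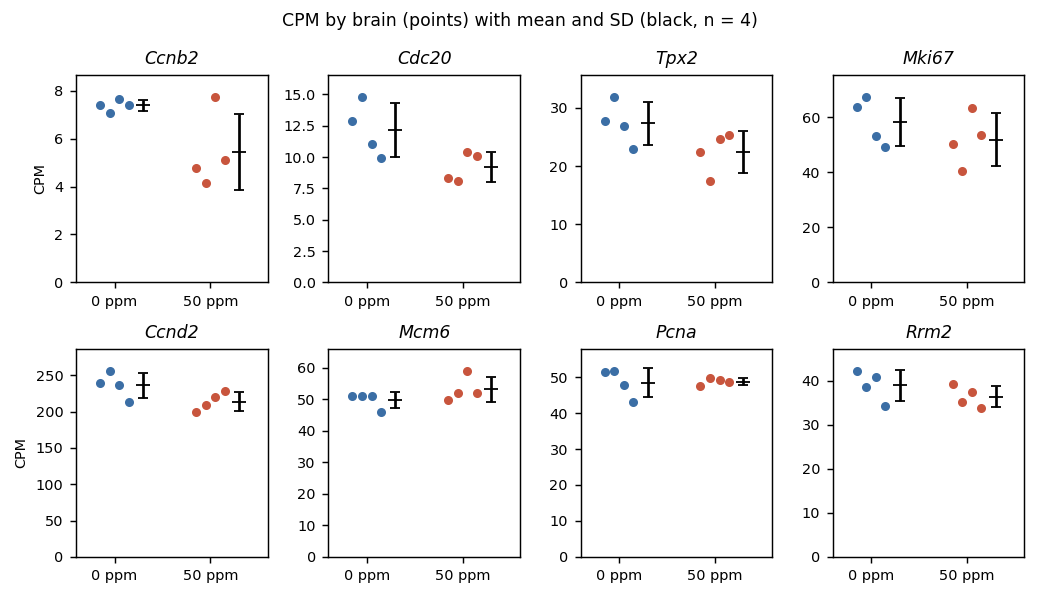
CPM (y axis, from 0) of 8 members in each brain by dose of the dam (x axis), with the mean and SD in black (n = 4). For Ccnb2 3 of 4 exposed brains and for Cdc20 2 of 4 lie below all controls, while the exposed values of Pcna lie within the control range and Mcm6 overlaps between doses.

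Among centromere and spindle genes, Tpx2, which nucleates spindle microtubules and activates Aurora A, was the most abundant for its length (5.32 CPM per kb; chr2:152847964-152895321, plus strand). It was measured at 27.7, 31.9, 26.8 and 23.0 CPM in control brains and 22.4, 17.4, 24.6 and 25.3 CPM in exposed brains. Control replicate 4 lay below exposed replicates 3 and 4, and the other controls lay above every exposed brain. The log2 fold change was -0.29 (SE 0.12, 95% interval -0.54 to -0.04), with an unadjusted p of 0.0279 and an adjusted p of 0.999 by edgeR. The exact permutation test on log2 CPM gave 0.114.

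Cenpa encodes the histone variant that marks centromeres. It had 7.68, 9.15, 8.36 and 6.93 CPM in control brains and 6.07, 6.57, 7.96 and 5.87 CPM in exposed brains, with only exposed replicate 3 inside the control range. Birc5, the gene of survivin in the chromosomal passenger complex, was at 5.12, 5.39, 5.78 and 4.03 CPM in control brains and 5.02, 3.72, 4.03 and 3.84 CPM in exposed brains. The log2 fold changes of Cenpa and Birc5 were -0.28 (SE 0.14) and -0.29 (SE 0.16).

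The remaining spindle members had smaller estimates, from -0.22 for Cenpe, a kinetochore motor, to -0.06 for Bub1, a kinase of the spindle checkpoint. Between them lay Cenpf, a kinetochore protein (-0.19), Aurkb, the kinase of the chromosomal passenger complex (-0.15), and Kif11, the motor that pushes the spindle poles apart (-0.13). The checkpoint gene Bub1b was at -0.12 and Nusap1, a binder of spindle microtubules, at -0.08. The highest control brain was replicate 2 for 6 of these 7 genes, all but Aurkb.

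Of the genes of mitotic exit and cytokinesis, Cdc20 had the smallest p of all members. It encodes an activator of the anaphase-promoting complex and lies at chr4:118432901-118437352 on the minus strand. Cdc20 CPM was 12.9, 14.8, 11.0 and 9.91 in control brains and 8.31, 8.08, 10.4 and 10.1 in exposed brains. Control replicate 4 was the only control below exposed brains. The log2 fold change was -0.40 (SE 0.14, 95% interval -0.70 to -0.10), with an unadjusted p of 0.0110 and an adjusted p of 0.999 by edgeR. The exact permutation test on log2 CPM gave 0.0857.

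Prc1, which bundles the microtubules of the central spindle, had 26.6, 25.1, 22.2 and 18.8 CPM in control brains and 18.8, 16.8, 20.6 and 23.2 CPM in exposed brains. Exposed replicate 4 exceeded the lower 2 controls. Kif20a, a motor of the central spindle, was at 10.2, 11.1, 8.78 and 8.91 CPM against 8.45, 6.95, 9.06 and 8.82 CPM. Both genes had a log2 fold change of -0.23 (SE 0.12 for Prc1 and 0.13 for Kif20a). Kif23, another motor of the central spindle, and Ube2c, the ubiquitin-conjugating enzyme of the anaphase-promoting complex, had estimates of -0.26 (SE 0.16) and -0.18 (SE 0.15). Exons of Kif20a (29.3%), Ccnd1 (23.4%) and Ube2c (22.8%) overlap exons on the opposite strand, and the strand setting of the count was not given in the sources used here. The zeros around Cdt1 were split by strand, but how they arose was not tested, so they do not settle the strand setting.

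Brains differed in a shared way across the members. Control replicate 2 was the highest of the 8 brains in 20 of 41 members, and exposed replicate 2 was the lowest in 23 of 41, of which 21 were among the 24 G2 and mitosis members. The summed CPM of these 24 genes was 472, 492, 409 and 369 in control brains and 372, 303, 439 and 418 in exposed brains. Exposed replicates 3 and 4 thus exceeded control replicates 3 and 4, and the groups overlapped (435 ± 56.5 and 383 ± 60.3 CPM, SD, n = 4). For the 17 G1/S and S phase genes the sum was 714, 721, 695 and 613 against 648, 659, 690 and 651 CPM. Dividing the mitotic by the S phase sum gave 0.661, 0.682, 0.589 and 0.601 in control brains and 0.574, 0.460, 0.637 and 0.641 in exposed brains. Means of this ratio were 0.633 ± 0.045 and 0.578 ± 0.085 (SD, n = 4), a difference within the spread of the exposed brains.

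Within a dose, G2 and mitosis members had lower counts and larger relative spread than S phase members. The coefficient of variation had a median of 14.8% in control and 16.3% in exposed brains for the former, and of 11.6% in both for the latter. Counting error alone would give 5.58% and 3.62%. The highest brain exceeded the lowest by 1.36 to 2.04 times in G2 and mitosis members and by 1.2 to 2.05 times in S phase members.

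**Figure D4:**
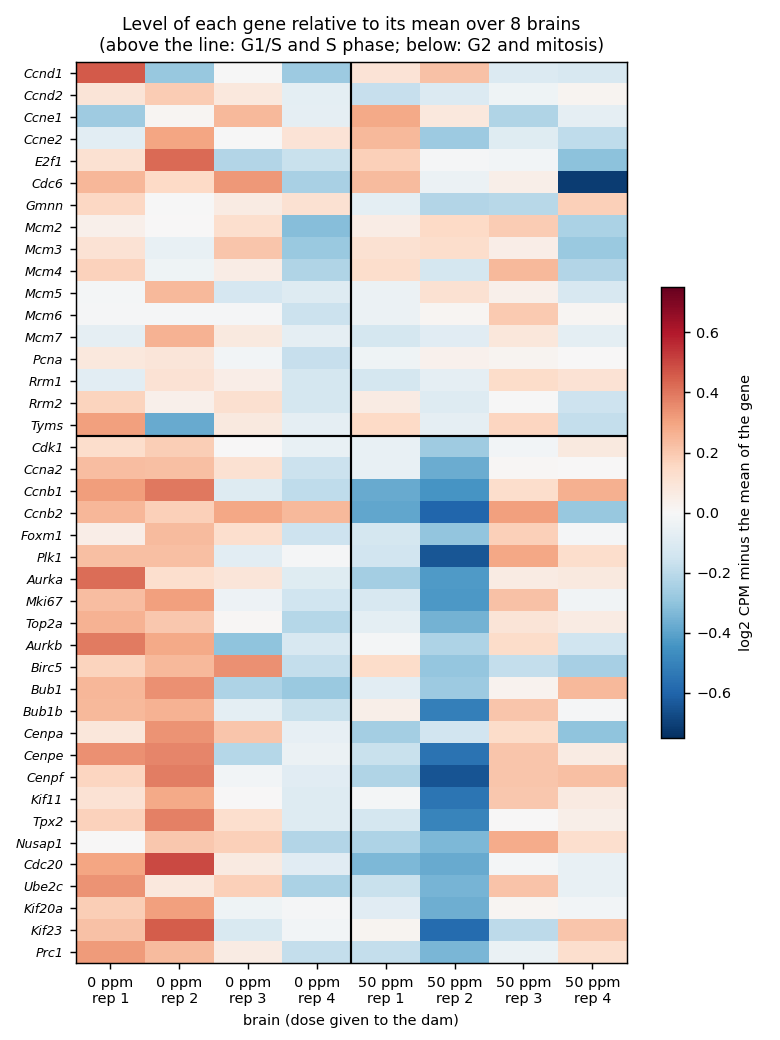
Level of each tested member (rows) in each of the 8 brains (columns) as log2 CPM minus the mean of that gene over the brains, red above and blue below. Control replicates 1 and 2 are mostly red and exposed replicate 2 mostly blue in the G2 and mitosis rows, while the S phase rows show no such block.

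Further genes of the pathway were taken from lists of genes that are not members. Of 50 other genes of mitosis, 47 had a negative and 3 a positive log2 fold change (Mad2l1, Cit and Nek2, at 0.04, 0.03 and 0.00), with a median of -0.19. Unadjusted, 6 of the 50 were lower and 0 higher, and 0 passed the adjusted threshold in edgeR. The smallest p-values were those of Ndc80 (-0.52, SE 0.16) and Spc25 (-0.48, SE 0.15), both of the NDC80 complex that holds microtubules at the kinetochore, and of Cdca3 (-0.34, SE 0.14), which triggers mitotic entry. Ndc80 was at 6.62, 6.44, 6.53 and 5.15 CPM in control brains and 5.40, 3.58, 4.25 and 4.01 CPM in exposed brains, overlapping through control replicate 4 and exposed replicate 1. Without exposed replicate 2, 41 of these 50 were negative, with a median of -0.10.

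Of 40 other DNA replication genes, 26 were negative and 14 positive (median -0.07), and 1 was lower at an unadjusted p under 0.05. This was Cdca7, a chromatin factor and target of MYC and E2F (-0.30, SE 0.11), followed in order of p by Rpa3, a subunit of the single-strand binding complex RPA (-0.22, SE 0.13), and Orc1 of the origin recognition complex (0.37, SE 0.27). Of 13 other G1/S genes, 9 were negative (median -0.05), and only Cdk4, the partner of cyclin D, passed the unadjusted threshold (-0.17, SE 0.08). E2f2 and the phosphatase gene Cdc25a were at -0.22 and -0.13. Of 10 inhibitors of the cycle, 6 were negative (median -0.08) and 0 passed, and those with the smallest p were Cdkn1b, the gene of p27 (-0.15), Cdkn2c, the gene of p18 (-0.24), and the retinoblastoma relative Rbl1 (-0.18).

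Markers of brain regions and cell types were compared in the same fit. Of 12 tested brainstem and spinal cord genes of a list of 14, 11 had a positive log2 fold change (median 1.43) and 9 passed the unadjusted threshold, led by Hoxb5 (2.33), Hoxc4 (1.91) and Slc5a7 (0.46), while 0 passed the adjusted threshold in edgeR. Hoxa3 and Hoxa4 were listed at 0, which was not read as absence, and the cause was not tested. The summed CPM of the brainstem and spinal cord list was 51.7, 48.2, 93.6 and 110 in control brains and 218, 132, 101 and 114 in exposed brains. Control replicates 1 and 2, with the lowest sums of this list, had the highest sums of G2 and mitosis members. Exposed replicates 1 and 2, with the highest sums of this list, had mitotic sums of 372 and 303, among the lowest 3. The other brain of these 3 was control replicate 4, with a mitotic sum of 369 and a sum of 110 for this list.

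With the mean log2 CPM of this list as a covariate, 11 of the 24 G2 and mitosis members were negative and 13 positive (median 0.02), 7 of the 17 G1/S and S phase members were negative and 10 positive (median 0.07), and 0 members passed an unadjusted p under 0.05. Of the 50 other mitosis genes, 28 were negative in that fit. The score itself differed between the doses, and with 8 brains the dose and the makeup of the sample cannot be fully told apart. The list includes the Hox genes Hoxb2, Hoxb3, Hoxb4, Hoxb5, Hoxa2 and Hoxc4. The paper reports raised Hox expression in newborn brains as an effect of maternal Cd exposure. If the score follows exposure, the covariate would also remove part of the difference between doses. Whether the score follows exposure or the makeup of the sample was not tested.

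**Figure D5:**
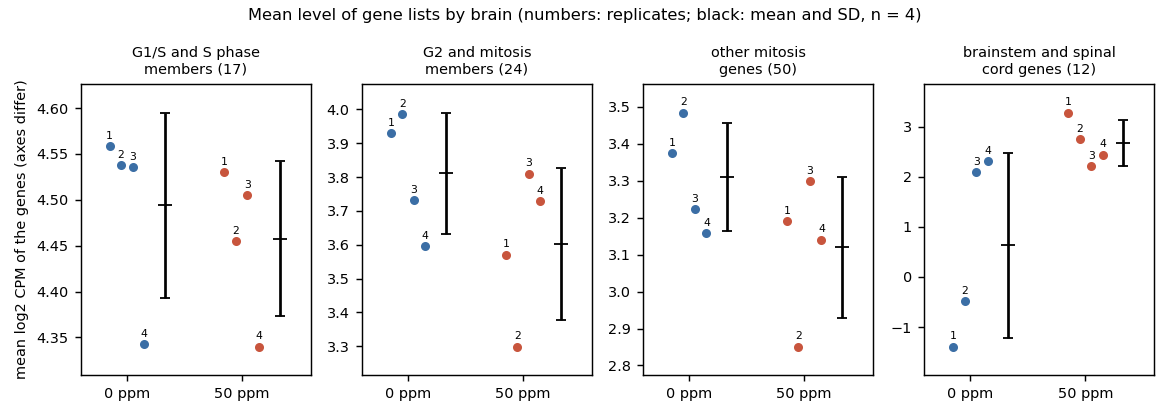
Mean log2 CPM (y axes, on different ranges) of 4 gene lists in each brain by dose of the dam (x axis), with replicate numbers beside the points and the mean and SD in black (n = 4). Control replicates 1 and 2 are highest for both mitosis lists and lowest for brainstem and spinal cord genes, and exposed replicate 2 is lowest for both mitosis lists.

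All 9 genes of ventral forebrain progenitors and new GABA neurons were negative (median -0.39), 5 of them at an unadjusted p under 0.05 in edgeR and 0 adjusted, with summed CPM of 210 to 222 in control and 142 to 184 in exposed brains. The smallest p-values were those of Dlx1 (-0.42), Sp9 (-0.40) and Dlx5 (-0.40), transcription factors of that lineage. Dlx1 and Sp9 are among the genes that the paper reports as differentially expressed with DESeq2. All 6 cortical intermediate progenitor genes were negative (median -0.63), 3 of them at that threshold (Neurod4, Eomes and Neurog2), with sums of 72.2 to 115 and 57.9 to 82.7 CPM. For radial glia, 7 of 9 tested genes were positive (median 0.03), with Nes at -0.21, Hopx at 0.29 and Slc1a3 at 0.13, and Sox2 was listed at 0. At an unadjusted p under 0.05 in edgeR, 1 radial glia gene was lower and 1 was higher. The sums of that list were 1280 to 1700 CPM in control and 1500 to 1650 CPM in exposed brains.

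Oligodendrocyte genes were positive in 7 of 8 (median 0.86), with sums of 108 to 143 CPM in control and 144 to 219 CPM in exposed brains. At an unadjusted p under 0.05 in edgeR, 7 of the 8 were higher and 0 lower. Bcas1 rose (log2 fold change 0.98, adjusted p = 0.0375 by edgeR's quasi-likelihood test), and Enpp6 (1.65) and Mag (1.15) followed in order of p. The paper reports Bcas1, Enpp6 and Mag as raised with DESeq2. Among microglial genes 6 of 7 were positive (median 0.21), led by P2ry12 (0.43), Csf1r (0.23) and Cx3cr1 (0.27), with sums of 76.5 to 88.1 and 90.1 to 109 CPM. Of the 7 microglial genes, 3 were higher and 0 lower at that unadjusted threshold. The part of the progenitor, oligodendrocyte and microglial lists in the values of the cell cycle genes was not tested.

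In the lists of the remaining cell types, 0 genes passed an unadjusted p under 0.05 in edgeR. Oligodendrocyte progenitor genes summed to 313 to 340 CPM in control and 305 to 349 CPM in exposed brains (median log2 fold change 0.05 over 6 genes; Gpr17 0.18, Olig2 -0.15, Pdgfra 0.09). Cerebellar granule cell progenitor genes summed to 166 to 312 and 242 to 265 CPM (median 0.09 over 7 genes, of which 2 were negative and 5 positive; Cbln3 0.26, Mfap4 0.14). Endothelial genes had sums of 218 to 265 and 232 to 289 CPM (median 0.09 over 7; Flt1 0.18, Cldn5 0.08, Pecam1 0.12). Erythroid genes had sums of 128 to 312 and 101 to 404 CPM (median -0.14 over 7, of which 5 were negative and 2 positive; Slc4a1 0.43, Alas2 0.20). Neuronal genes had sums of 5820 to 6700 and 6070 to 6500 CPM (median 0.01 over 7; Snap25 0.14, Dcx -0.08, Rbfox3 0.07).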

How the data were processed

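The authors trimmed the leading bases of the reads after FastQC, aligned them to the C57BL/6J genome (GRCm38, Ensembl) with STAR, and deposited raw counts per gene from htseq-count, without normalization. Versions of these tools and the strand setting were not given in the sources used here. By the filter rule stated in the study, 23113 genes with a count in at least 3 of 8 libraries were kept. That is more genes than the study reports for this alignment. The 23113 genes were fitted with edgeR 4.0.16 (R 4.3.3, TMM factors, quasi-likelihood test, dose as the only term) and adjusted by Benjamini-Hochberg over all of them. DESeq2 1.42.0 was an alternative. CPM was computed on TMM library sizes. Exons, lengths and positions came from GENCODE M21 (GRCm38), and lists of genes were matched to it by symbol. Intervals are 95% intervals of the fit. The scripts were tested on simulated data with changed genes of known fold. The changed genes were drawn only from those above a set mean count, and the members Cdc6 and Gmnn lie below it. At an absolute log2 fold change of 0.5, edgeR recovered 66% and DESeq2 75% of the changed genes. False calls made up 8.33% of the calls of edgeR and 12.1% of those of DESeq2. Smaller changes, such as those estimated for the members, were not simulated.

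The members and all lists were chosen with earlier results of these data known, so no test was made over a list. All members were named. Values by brain were given for the 3 members of each role with the smallest p and for the most abundant for its length, and up to 3 genes by p were named from each other list, a few of which are not reported here. Alternatives were DESeq2, its size factors, no filter, a filter of at least 10 counts in 4 libraries, a covariate of brainstem and spinal cord genes (mean log2 CPM) and leaving out each library. Pairs of brains of a dose differed by more than counting error (chi-square per degree of freedom 9.32 to 22.8), so all 8 were counted as separate samples. The table of reads aligned to the CAST/EiJ genome was not used here.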

Additional observations from a re-analysis of the deposited data

Results flagged for a closer look

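Mcm6, a subunit of the replicative helicase, was at 46.0 CPM in 0 ppm replicate 4, while the other 3 control brains lay between 51.1 and 51.2 CPM. The gap was 0.974 of the range of the group, above the critical value of Dixon's test at the 95% level for 4 samples. This was the only 1 of 82 groups examined (41 members at 2 doses) in which a brain stood apart in this way, and chance alone is expected to flag about 1 in 20 groups. The same brain had the lowest value of 5 of the 17 G1/S and S phase members.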

How the results depend on the processing

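The number of members with an adjusted p under 0.05 was 0 under all 13 alternatives by edgeR or DESeq2, with a smallest adjusted p of 0.342. Over all genes, the 4 adjusted calls became 22 with DESeq2, 52 with no filter, 2 with the filter of at least 10 counts in 4 libraries, and 2 to 20 with a library left out. The 3 unadjusted member calls became 0 with the brainstem and spinal cord covariate and 1 to 8 with a library left out (Cdc20 alone without 50 ppm replicate 2, Ccnb2 alone without 0 ppm replicate 2, and 8 without 0 ppm replicate 4). The median of the G2 and mitosis members was 0.02 with the covariate and between -0.27 and -0.10 with a library left out, and that of the G1/S and S phase members was 0.07 and between -0.06 and 0.01. Negative values in G2 and mitosis members (24, a count chosen after seeing the data) numbered 11 with the covariate and 19 to 24 with a library left out, and those in other mitosis genes (47) numbered 28 and 41 to 49.

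With the covariate, 16 members changed sign, all without a call. Their log2 fold changes were then -0.165 for Ccne1, 0.145 for E2f1, 0.109 for Mcm5, 0.165 for Ccnb1, 0.069 for Plk1, 0.083 for Mki67, 0.101 for Top2a, 0.218 for Aurkb, 0.303 for Bub1, 0.128 for Bub1b, 0.118 for Cenpe, 0.050 for Cenpf, 0.037 for Kif11, 0.044 for Nusap1, 0.025 for Ube2c and 0.014 for Prc1. With a library left out, 15 members changed sign, with ranges of -0.055 to 0.135 for Ccne1, -0.154 to 0.051 for Bub1, -0.061 to 0.212 for Ccnd1, -0.172 to 0.058 for E2f1, -0.008 to 0.159 for Mcm2, -0.079 to 0.090 for Mcm3, -0.057 to 0.091 for Mcm4, -0.054 to 0.077 for Mcm5, -0.089 to 0.136 for Tyms, -0.043 to 0.041 for Pcna, -0.013 to 0.073 for Rrm1, -0.280 to 0.007 for Plk1, -0.213 to 0.006 for Bub1b, -0.215 to 0.009 for Kif11 and -0.186 to 0.019 for Nusap1. The largest of these in the fit of all brains were Plk1 at -0.149, Kif11 at -0.128 and Bub1b at -0.123. The other 26 kept their sign under all alternatives outside the covariate fit. The cause of these changes was not tested.

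No paired analysis was possible because the labels number no replicates and each pup came from its own litter. The spread within a dose exceeded counting error for most members, so the precision was set by the 4 brains of a dose more than by depth.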
